A study of Homo sapiens with 12 samples.

Results

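The actin isoforms described here are the products of 5 genes, ACTA1, ACTA2, ACTC1, ACTB and ACTG1, which were taken by symbol from the 17096 genes listed. All 5 passed the filter on low values, as did 16295 genes in all. They were followed in H7, an established line of human embryonic stem cells, as it was steered into cardiomyocytes in culture. RNA was sampled at day 3, when the labels call the cells cardiac mesoderm, and at days 7 and 15, when they call them cardiomyocytes. At each day there were 2 wild-type libraries and 2 libraries of cells labelled E2A-/-, which gave 12 libraries in 6 groups. TCF3, the gene once called E2A, encodes a transcription factor with a basic helix-loop-helix domain. All groups share the same parental line. Whether the E2A-/- cells are 1 clone, and whether replicates came from separate cultures, is not given in the sources used here. The spread between libraries of a group may thus be technical.

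Actin monomers assemble into the filaments that shape every cell and, in muscle, into the thin filaments along which myosin pulls. ACTC1 encodes cardiac alpha-actin and ACTA1 skeletal alpha-actin, the pair of sarcomeric actins, and ACTA2 encodes alpha-actin of smooth muscle, which the embryonic heart also makes before the sarcomeric forms take over. ACTB and ACTG1 encode beta- and gamma-actin, the cytoplasmic forms of non-muscle cells. Free actin monomers hold back the coactivators of serum response factor (SRF), so actin takes part in the control of its own genes through a DNA element called the CArG box.

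In the GENCODE release 29 annotation on GRCh38 all 5 genes lie on the minus strand of different chromosomes. ACTA1 spans chr1:229431245-229434098, ACTA2 chr10:88935074-88991339, ACTC1 chr15:34788095-34795726, ACTB chr7:5527147-5563784 and ACTG1 chr17:81509971-81523847. ACTA2 overlaps 3 genes of the plus strand (STAMBPL1, ACTA2-AS1 and FAS), ACTC1 overlaps AC087457.1, ACTG1 overlaps AC139149.1, and ACTB overlaps AC006483.1 and AC006483.2. As the strand setting of the counting is not given in the sources used here, reads of these partners cannot be told apart from reads of the actins. The coding sequence has 377 codons before the stop in each muscle gene and 375 in each cytoplasmic one.

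The first 45 coding bases of the 5 transcripts, 5′ to 3′ from the annotated start codon, show how alike the genes are within each class and where they part. Capitals mark the bases that differ from ACTC1 in the other muscle genes, and from ACTB in ACTG1.
ACTC1: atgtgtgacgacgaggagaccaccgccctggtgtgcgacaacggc
ACTA1: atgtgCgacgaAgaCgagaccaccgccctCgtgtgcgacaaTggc
ACTA2: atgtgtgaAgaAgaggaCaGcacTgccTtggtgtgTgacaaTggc
ACTB: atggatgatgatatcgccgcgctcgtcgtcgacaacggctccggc
ACTG1: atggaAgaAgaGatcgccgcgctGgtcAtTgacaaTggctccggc
ACTA1 differed from ACTC1 at 5 of these bases, ACTA2 differed from ACTC1 at 8, and ACTG1 differed from ACTB at 7. Over the whole coding sequence ACTB and ACTG1 were 91.3% identical and the other 9 pairs between 82.2% and 86%. The longest exact run shared by any pair of the transcripts was 59 bases, between ACTB and ACTG1. Of all 50-base windows, 1.12% of those of ACTB, 0.763% of those of ACTA1 and 0.51% of those of ACTG1 also occur in another of the 5 transcripts, and none of those of ACTA2 or ACTC1 does. The ACTA1 windows are shared with ACTB, across the classes, where the longest exact run was 58 bases. How reads with several placements were counted is not given in the sources used here. The split between isoforms carries that uncertainty.

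Promoter windows from RefSeq (GRCh38.p14, 250 bases before to 50 after a transcription start) were matched for 4 of the 5 genes, ACTA1, ACTA2, ACTC1 and ACTG1, in 7 windows. They were searched for the CArG box because the genes are textbook SRF targets. A box was found in 3 genes, shown here with 10 bases on each side and the box in capitals, on the minus strand, 5′ to 3′.
ACTA1 chr1:229434172-229434201: tgcccaacacCCAAATATGGctcgagaagg
ACTC1 chr15:34795639-34795668: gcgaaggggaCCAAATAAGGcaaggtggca
ACTG1 chr17:81512874-81512903: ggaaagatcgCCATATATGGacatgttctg
The boxes begin 97, 109 and 94 bases before the start. The motif reads alike on both strands and was present in 1.29% of all 35116 promoter windows of this length. Neither of the 2 ACTA2 windows holds an exact match. The search took only CC, a run of A or T, and GG, so a box with a mismatch would have been missed. The E-box, CANNTG on either strand, the element bound by basic helix-loop-helix factors, was found in a window of all 4 genes, but 68.7% of all windows hold one. Its form CAGCTG, held by 17.9% of all windows, was found at 1 of the 3 ACTC1 starts and at no start of the other 3 genes. These matches are descriptions of the sequence and say nothing of binding.

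Values are read as FPKM, fragments scaled by the length of the transcript and by the mapped total of the library. The unit was inferred from the values and is named by no label or header, and the shares and ratios of isoforms given here rest on its being per length. The values of a library summed to between 577716 and 734958 FPKM, and mitochondrially encoded genes took between 8.14% and 26.2% of the sum. The correlation of replicates across genes lay between 0.970 and 0.989 (Pearson's r) and was lowest in the day 15 labelled knockout. TCF3 itself was listed at 180 and 149 FPKM in wild type and 146 and 148 FPKM in the labelled knockout at day 3, at 135 and 138 against 180 and 172 FPKM at day 7, and at 74.4 and 98.2 against 170 and 108 FPKM at day 15 (log2 changes -0.15, 0.36 and 0.66, adjusted p = 0.618, 0.159 and 0.0234). Its mRNA was therefore higher at day 15 in the libraries labelled E2A-/- and passed as lower at no day. The labels could not be checked from this gene, and the groups are called wild type and labelled knockout throughout. Cardiomyocyte markers (11 of 14 listed genes) summed to 8258 to 8377 FPKM in wild type and 1417 to 1535 FPKM in the labelled knockout at day 7, against 37.6 to 57.5 FPKM in the 4 libraries of day 3. At day 15 they summed to 11526 to 12597 and 4031 to 4784 FPKM. Most of the day 3 sum was TNNI3, at group means of 39.1 FPKM in wild type and 26.4 FPKM in the labelled knockout. In each genotype 6 of the 11 markers were under 1 FPKM as group means at that day. In these bulk libraries, fewer cells of a type and less RNA per cell cannot be told apart.

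ACTC1, the cardiac alpha-actin gene, went from a minor transcript at day 3 to the most abundant of the 5 actins in wild type at day 7. Its wild-type values were 16.6 and 15.9 FPKM at day 3, 1617 and 1670 FPKM at day 7, and 967 and 992 FPKM at day 15. In the labelled knockout it was listed at 3.48 and 7.65 FPKM at day 3, at 201 and 173 FPKM at day 7, and at 478 and 313 FPKM at day 15. At each day both labelled knockout libraries lay below both wild-type libraries, and no neighbouring pair of the 6 groups overlapped when ordered by level. On the log2(FPKM + 1) scale, which understates the change of low genes, ACTC1 was lower in the labelled knockout by 1.47 (log2 change -1.47, SE 0.26, adjusted p = 0.00311) at day 3, with a larger gap at day 7 (-3.13, SE 0.26, adjusted p = 1.65e-05) and a smaller one at day 15 (-1.34, SE 0.26, adjusted p = 0.00325). Each adjusted p here is from limma with the Benjamini-Hochberg adjustment, taken over every gene tested.

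ACTA2, the smooth muscle alpha-actin gene, rose with ACTC1 in wild type and then held its level. Its wild-type libraries were listed at 3.68 and 2.71 FPKM at day 3, at 554 and 561 FPKM at day 7 and at 506 and 538 FPKM at day 15. The labelled knockout libraries were listed at 0.64 and 1.71 FPKM, at 50.5 and 44.3 FPKM, and at 141 and 104 FPKM. No labelled knockout library reached the wild-type range of its day. The difference was -0.98 (SE 0.22, adjusted p = 0.0102) at day 3, -3.53 (SE 0.22, adjusted p = 2.94e-06) at day 7 and -2.10 (SE 0.22, adjusted p = 9.06e-05) at day 15. The day 3 call was lost in a fit on the day 3 groups alone (adjusted p = 0.0587), without wild type replicate 1 (-0.81, adjusted p = 0.0825) and without labelled knockout replicate 1 (-0.62, adjusted p = 0.0756).

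ACTA1, the skeletal alpha-actin gene, was the lowest of the 5 in all 12 libraries and kept rising to day 15 in wild type. It was listed below 1 FPKM in every library of day 3 (0.746 and 0.278 FPKM in wild type, 0.251 and 0.193 FPKM in the labelled knockout). Day 7 brought 43.3 and 43.5 FPKM in wild type and 15.5 and 12.6 FPKM in the labelled knockout, and day 15 brought 205 and 225 FPKM against 30.2 and 23.6 FPKM. The labelled knockout at day 15 thus had not reached the wild-type level of day 7. The genotype difference did not pass at day 3 (-0.29, SE 0.18, adjusted p = 0.286), and passed at day 7 (-1.57, SE 0.18, adjusted p = 0.000112) and day 15 (-2.96, SE 0.18, adjusted p = 3.6e-06).

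**Figure D1:**
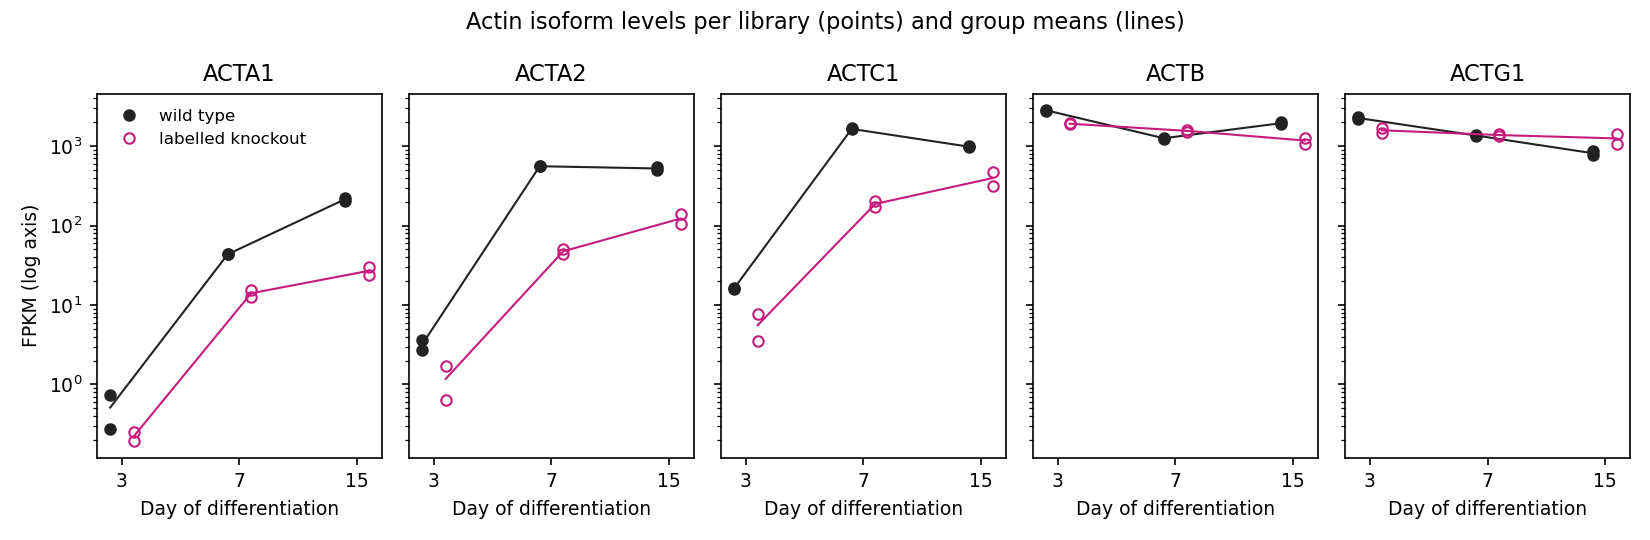
FPKM on a log axis for each actin gene (panels) by day of differentiation, with 1 point per library (filled, wild type; open, labelled knockout) and lines through group means. ACTC1 in wild type sits at 1617 and 1670 FPKM at day 7 against 201 and 173 FPKM in the labelled knockout, while ACTB and ACTG1 stay between 761 and 2836 FPKM in all 12 libraries.

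The cytoplasmic actins moved over a far narrower range, and differently from each other. ACTB, the beta-actin gene often used as a reference in expression work, was listed in wild type at 2836 and 2798 FPKM at day 3, at 1234 and 1274 FPKM at day 7 and at 1894 and 1988 FPKM at day 15. In the labelled knockout it was listed at 1891 and 1928 FPKM, at 1521 and 1582 FPKM, and at 1277 and 1068 FPKM. Wild type dipped at day 7 and by day 15 had come only part of the way back to its day 3 level. The labelled knockout was lowest at day 15, so that the order of the genotypes changed from day to day. The difference was -0.56 (SE 0.11, adjusted p = 0.00452) at day 3, 0.31 (SE 0.11, adjusted p = 0.0415) at day 7 and -0.73 (SE 0.11, adjusted p = 0.000592) at day 15. The day 7 call did not survive median-ratio rescaling (0.22, adjusted p = 0.0963), a fit without the trend (adjusted p = 0.0833) or the removal of any 1 of the 4 libraries of that day (0.28 to 0.33).

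ACTG1, the gamma-actin gene, fell steadily in wild type. Its libraries were listed at 2310 and 2196 FPKM at day 3, at 1365 and 1351 FPKM at day 7 and at 761 and 861 FPKM at day 15. The labelled knockout was listed at 1688 and 1470 FPKM, at 1431 and 1319 FPKM, and at 1438 and 1055 FPKM. The genotypes were apart at day 3, overlapped at day 7, and at day 15 both labelled knockout libraries lay above both wild-type libraries. The difference was -0.52 (SE 0.15, adjusted p = 0.0277) at day 3, 0.02 (SE 0.15, adjusted p = 0.936) at day 7 and 0.60 (SE 0.15, adjusted p = 0.00916) at day 15. At day 3 the call was lost when the nuclear genes were set to the same sum in every library (-0.34, adjusted p = 0.0756) and on leaving out any 1 of the 4 libraries (-0.61 to -0.42). At day 15 it was lost without wild type replicate 1 (0.52, adjusted p = 0.0712) and in a fit on the day 15 groups alone (adjusted p = 0.056).

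Counted together, 4 of the 5 actins passed at day 3, all 4 of them lower in the labelled knockout, where 23.6% of all genes tested passed, 14.1% of them lower and 9.51% higher as shares of all genes. At day 7, 4 of the 5 passed, the 3 muscle genes lower and ACTB higher, against 42% of all genes (19.9% lower, 22.1% higher). At day 15 all 5 passed, ACTG1 higher and the other 4 lower, against 35.1% of all genes (16.2% lower, 18.9% higher). Mitochondrial transcripts took 8.14% to 8.55% of wild-type FPKM at day 7 and 18.5% to 20.2% in the labelled knockout, and at day 15 26.1% to 26.2% and 13.9% to 14.3%. Scaling by the nuclear sum moved the median change of all genes to 0.12 at day 3 and 0.22 at day 7, and the share of calls that were higher from 40.3% to 62.3% and from 52.6% to 68.2%. Under it ACTB stood at -0.38 (adjusted p = 0.0159) at day 3 and 0.51 (adjusted p = 0.00174) at day 7, and the muscle genes at day 7 stood between -3.33 and -1.37.

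The course within wild type separated the classes at the first step. From day 3 to day 7 the 3 muscle genes rose, ACTA2 by 7.07 (SE 0.22, adjusted p = 4.79e-09), ACTC1 by 6.57 (SE 0.26, adjusted p = 2.44e-08) and ACTA1 by 4.89 (SE 0.18, adjusted p = 1.55e-08). Over the same step ACTB fell by 1.17 (SE 0.11, adjusted p = 1.19e-05) and ACTG1 fell by 0.73 (SE 0.15, adjusted p = 0.00232). All 5 genes passed, where 43.7% of all genes did (21.1% higher, 22.6% lower). From day 7 to day 15 the classes no longer moved as such, and 4 of the 5 passed against 52.3% of all genes (25.5% higher, 26.8% lower). ACTA1 rose by 2.28 (SE 0.18, adjusted p = 6.3e-06) and ACTB by 0.63 (SE 0.11, adjusted p = 0.000761), ACTG1 fell by 0.75 (SE 0.15, adjusted p = 0.00171), and ACTA2 stood at -0.10 (SE 0.22, adjusted p = 0.742). ACTC1 fell by 0.75 (SE 0.26, adjusted p = 0.0353), but this call was lost with the nuclear sums equalised (-0.56, adjusted p = 0.0898), with a pseudocount of 0.1 (adjusted p = 0.0541) and without any 1 of the 4 libraries (-0.77 to -0.72). At this step nuclear-sum scaling moved the median of all genes to 0.17 and the share of calls that were higher from 48.7% to 60.1%, and it turned ACTA2 to 0.09.

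In the labelled knockout the muscle genes rose over both steps and the cytoplasmic genes moved less. Group means of ACTB went down from 1910 FPKM at day 3 to 1552 FPKM at day 7 and 1173 FPKM at day 15. From day 3 to day 7 ACTC1 rose by 4.91 (SE 0.26, adjusted p = 5e-07), ACTA2 by 4.52 (SE 0.22, adjusted p = 2.81e-07) and ACTA1 by 3.62 (SE 0.18, adjusted p = 3.35e-07). ACTB (-0.30, adjusted p = 0.0606) and ACTG1 (-0.20, adjusted p = 0.347) did not pass, which left 3 of 5 called against 28.6% of all genes (17.3% higher, 11.4% lower). ACTB did pass after median-ratio rescaling (-0.38, adjusted p = 0.0145) and with a filter at 5 FPKM (adjusted p = 0.0457). At this step nuclear-sum scaling moved the median of all genes to 0.14 and the share of calls that were higher from 60.2% to 70.1%. From day 7 to day 15 ACTA2 rose by 1.34 (SE 0.22, adjusted p = 0.00165), ACTC1 by 1.05 (SE 0.26, adjusted p = 0.0143) and ACTA1 by 0.88 (SE 0.18, adjusted p = 0.00546), ACTB fell by 0.41 (SE 0.11, adjusted p = 0.0174), and ACTG1 stood at -0.16 (SE 0.15, adjusted p = 0.451). These are 4 of 5 called against 28.4% of all genes (13.3% higher, 15.1% lower). The replicates of day 15 lay further apart here, and single libraries decided some values: ACTC1 was not called without the day 15 replicate 1 (0.74, adjusted p = 0.0828) or without the day 7 replicate 2 (0.94, adjusted p = 0.0771). The ACTB fall was not called in a fit on the 2 groups alone (adjusted p = 0.183) or without the day 7 replicate 1 (-0.44, adjusted p = 0.0546), the day 7 replicate 2 (-0.38, adjusted p = 0.0824) or the day 15 replicate 2 (-0.28, adjusted p = 0.0548).

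**Figure D2:**
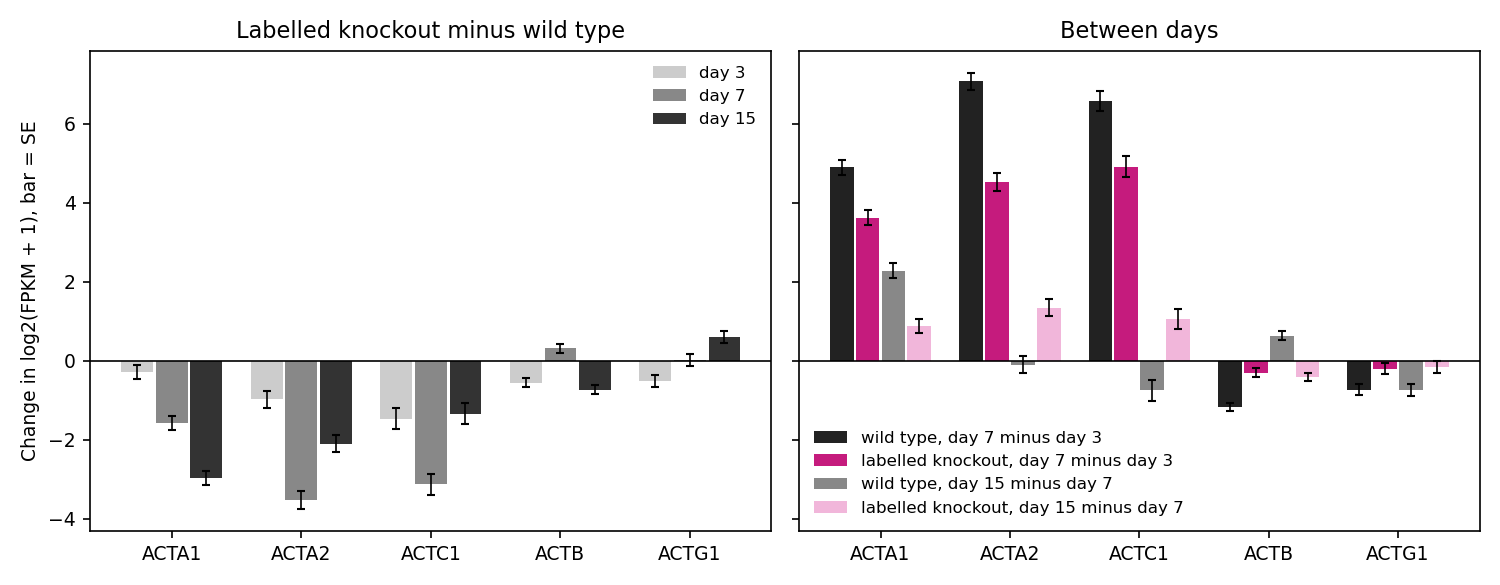
Change in log2(FPKM + 1) of each actin gene with its standard error, between genotypes at each day (left) and between neighbouring days within each genotype (right). The muscle genes stand below 0 in the genotype panel at every day, from -0.29 for ACTA1 at day 3 to -3.53 for ACTA2 at day 7, while ACTB and ACTG1 stand between -0.73 and 0.60.

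Whether the genotype difference itself changed between days was tested as an interaction. From day 3 to day 7 it moved further down for ACTA2 (-2.55, SE 0.32, adjusted p = 0.000546), ACTC1 (-1.66, SE 0.37, adjusted p = 0.0118) and ACTA1 (-1.28, SE 0.26, adjusted p = 0.00737), and up for ACTB (0.87, SE 0.15, adjusted p = 0.00348). ACTG1 stood at 0.53 (SE 0.21, adjusted p = 0.0959). These are 4 of 5 called, where 20.2% of all genes were (11.3% upward, 8.9% downward). From day 7 to day 15 the muscle genes split. The gap narrowed for ACTC1 (1.79, SE 0.37, adjusted p = 0.00513) and ACTA2 (1.43, SE 0.32, adjusted p = 0.00683) and widened for ACTA1 (-1.40, SE 0.26, adjusted p = 0.00284). ACTB moved down (-1.04, SE 0.15, adjusted p = 0.000804) and ACTG1 stood at 0.59 (SE 0.21, adjusted p = 0.0517), so that 4 of 5 were called, against 31.7% of all genes (16.6% upward, 15.2% downward). At this step nuclear-sum scaling moved the median of all genes to -0.17 and the upward share of calls from 52.2% to 37.7%, and under it the muscle genes stood at 1.59, 1.23 and -1.59 in the same order. The ACTA1 interaction of the first step was not called with a pseudocount of 0.1 (-0.81, adjusted p = 0.23). Its day 3 values lie under 1 FPKM, and their part in this was not tested.

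Shares of summed actin do not depend on how libraries are scaled, and no test was made on them. At day 3 the muscle isoforms held 0.407% and 0.377% of summed actin FPKM in wild type and 0.122% and 0.28% in the labelled knockout. At day 7 they held 46% and 46.4% in wild type and 8.31% and 7.35% in the labelled knockout, and at day 15 38.7% and 38.1% against 19.3% and 17.2%. The groups did not overlap at any day. Group means were 46.2% ± 0.295 (SD, n = 2) and 7.83% ± 0.678 (SD, n = 2) at day 7, and 38.4% ± 0.428 (SD, n = 2) and 18.2% ± 1.49 (SD, n = 2) at day 15. The muscle share thus fell between days 7 and 15 in wild type by more than the spread between replicates, and rose in the labelled knockout.

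By single isoform, ACTC1 held 33.6% and 34.1% of summed actin in wild type at day 7 and 22.3% and 21.6% at day 15. ACTA2 held 11.5% and 11.4% and then 11.7% and 11.7%, and ACTA1 went from 0.899% and 0.889% to 4.74% and 4.89%. The labelled knockout saw ACTC1 go from 6.26% and 5.53% to 14.2% and 12.2%, ACTA2 from 1.57% and 1.41% to 4.19% and 4.05%, and ACTA1 from 0.481% and 0.404% to 0.897% and 0.919%. ACTG1 held 41.2% to 47.1% of actin in all 6 labelled knockout libraries, while in wild type it went from 44.7% and 43.8% at day 3 to 28.4% and 27.6% at day 7 and 17.6% and 18.7% at day 15. ACTB went from 54.9% and 55.8% down to 25.6% and 26% and then up to 43.7% and 43.2% in wild type, and stayed between 38% and 56.6% in the labelled knockout. The fall of the muscle share in wild type after day 7 was thus a fall of ACTC1 beside a rise of ACTB, with ACTA1 rising.

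**Figure D3:**
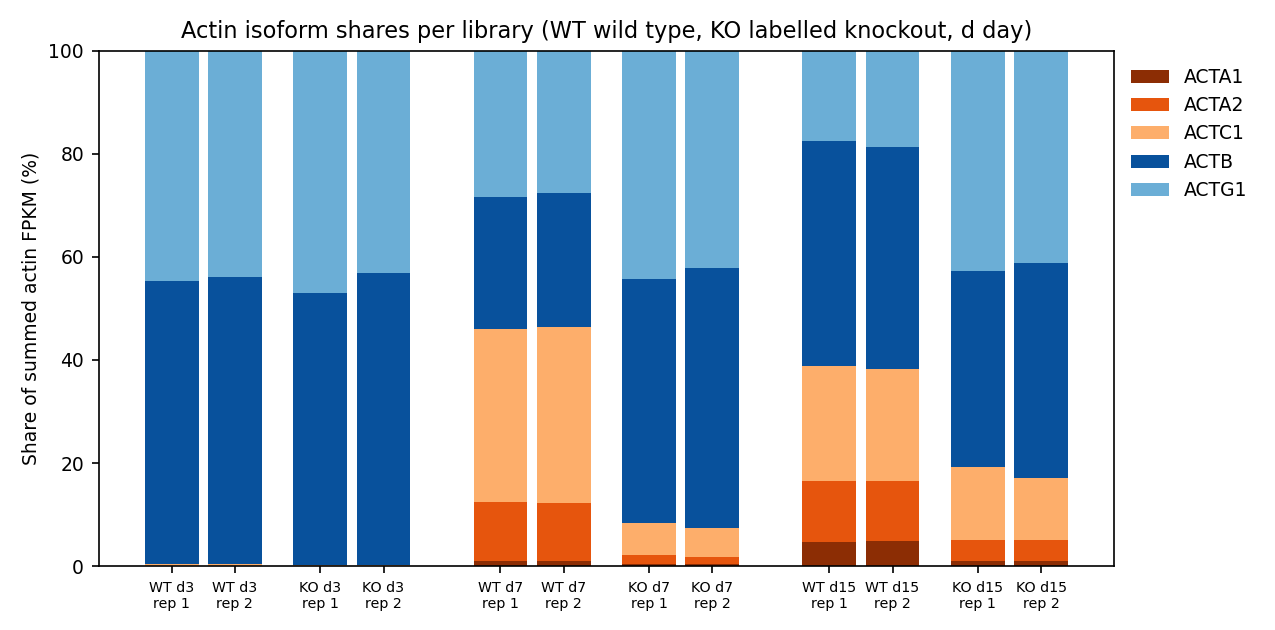
Share of each actin gene in summed actin FPKM, in percent, with 1 stacked bar per library (WT, wild type; KO, labelled knockout). The 3 muscle genes (orange and brown) fill 46% and 46.4% of the wild-type bars at day 7 against 8.31% and 7.35% of the labelled knockout bars.

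Within the muscle class the make-up also differed by genotype at day 15. In wild type ACTC1 made up 73% and 73.4% of muscle actin FPKM at day 7 and 57.6% and 56.6% at day 15. ACTA1 made up 1.95% and 1.91% and then 12.2% and 12.8%, and ACTA2 25% and 24.6% and then 30.2% and 30.6%. In the labelled knockout the mix changed less: ACTC1 made up 75.3% in both libraries at day 7 and 73.7% and 71.1% at day 15, and ACTA1 5.79% and 5.49% and then 4.65% and 5.35%. At day 7 the ACTA1 part of muscle actin was therefore higher in the labelled knockout, and at day 15 it was higher in wild type, each time without overlap. The ratio of ACTC1 to ACTA1 FPKM, the balance of the sarcomeric isoforms, fell in wild type from 37.4 and 38.4 at day 7 to 4.71 and 4.41 at day 15. It was, in the labelled knockout, 13 and 13.7 at day 7 and 15.8 and 13.3 at day 15, a change within the spread of the replicates.

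The order of the isoforms within a library changed accordingly. In all 4 libraries of day 3 it ran ACTB, ACTG1, ACTC1, ACTA2, ACTA1 from high to low. At day 7 both wild-type libraries had ACTC1 first, then ACTG1 and ACTB, whereas both labelled knockout libraries kept the order of day 3. At day 15 wild type had ACTB first and ACTC1 second in both libraries, and in the labelled knockout ACTG1 led in replicate 1 and ACTB in replicate 2. ACTA2 stood above ACTA1 alone in all 12 libraries.

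The ratio of ACTB to ACTG1 was close to 1 in most libraries and stood apart in wild type at day 15. It was 1.23 and 1.27 in wild type and 1.12 and 1.31 in the labelled knockout at day 3, 0.904 and 0.944 against 1.06 and 1.2 at day 7, and 2.49 and 2.31 against 0.889 and 1.01 at day 15. Summed actin, by contrast, differed between genotypes at every day and hardly between days. It made up 0.821% to 0.890% of the FPKM of nuclear genes in all 6 wild-type libraries and 0.518% to 0.660% in all 6 labelled knockout libraries. The day 15 labelled knockout replicate 2 was the lowest at 0.518%, with replicate 1 at 0.641%. No test was made on this sum over chosen genes.

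Set against TNNT2, cardiac troponin T, a partner of actin in the thin filament, ACTC1 was low for the amount of TNNT2 in the labelled knockout. The ratio of ACTC1 to TNNT2 FPKM was 2 and 1.96 in wild type and 0.849 and 0.953 in the labelled knockout at day 7, and 0.654 and 0.612 against 0.447 and 0.427 at day 15. TNNT2 itself was listed at 810 and 852 FPKM in wild type and 237 and 182 FPKM in the labelled knockout at day 7, and at 1479 and 1622 FPKM against 1070 and 735 FPKM at day 15. Its genotype difference was -2.00 (SE 0.21, adjusted p = 5.19e-05) at day 7 and -0.80 (SE 0.21, adjusted p = 0.0125) at day 15, where that of ACTC1 was -3.13 and -1.34. The difference between the 2 genes was not tested. Other sarcomeric partners stood on both sides of ACTC1, so the low ratio is one to TNNT2 and not to every partner. At days 7 and 15 the troponin genes stood at -3.43 and -1.77 (TNNC1), -2.28 and -0.37 (TNNI1) and -1.16 and -2.23 (TNNI3). TPM1 stood at -1.30 and -1.03, and ACTN2 at -3.02 and -1.87. At day 3 TNNT2 was under 1.3 FPKM in all 4 libraries, and the ratio there is not read.

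**Figure D4:**
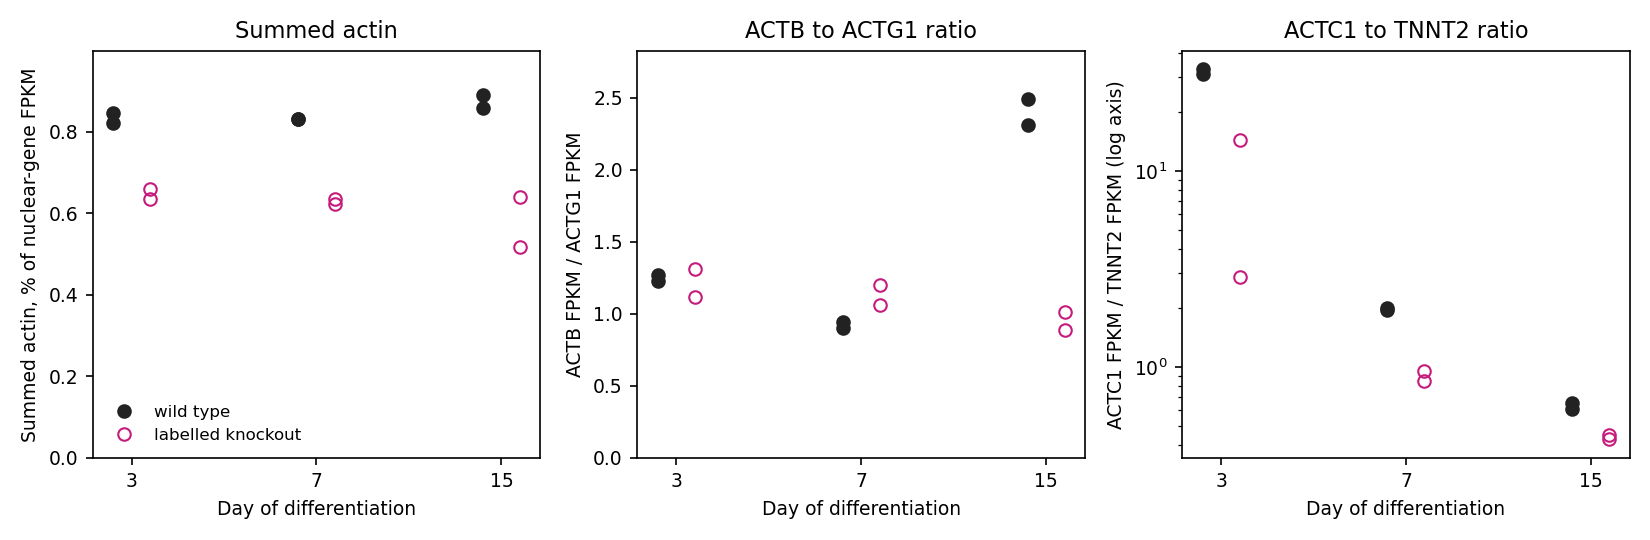
Values per library by day (filled, wild type; open, labelled knockout): summed actin as a percent of nuclear-gene FPKM (left), the ACTB to ACTG1 ratio (middle) and the ACTC1 to TNNT2 ratio on a log axis (right). Wild type lies above the labelled knockout in summed actin at all 3 days, and the ACTB to ACTG1 ratio reaches 2.49 and 2.31 in wild type at day 15.

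The genes that control actin transcription were counted from a list of 14, of which 13 were tested. At day 3, 1 was higher and 2 were lower in the labelled knockout (median log2 change 0.03, all genes -0.01), a share near the 23.6% of all genes that passed. At day 7, 1 was higher and 7 were lower (median -0.53, all genes 0.06), where 22.1% of all genes were higher and 19.9% lower. At day 15, 3 were higher and 2 lower (median 0.33, all genes 0.03), near the 35.1% of all genes that passed. SRF, the factor that binds the CArG box, was listed at 40.7 and 39.5 FPKM against 33.7 and 31.2 FPKM at day 3 (-0.30, SE 0.12, adjusted p = 0.103) and at 30.8 and 31.4 FPKM against 33.3 and 32.6 FPKM at day 7 (0.08, SE 0.12, adjusted p = 0.626). It passed at day 15, at 36.6 and 40.7 FPKM against 30.9 and 25.5 FPKM (-0.45, SE 0.12, adjusted p = 0.0162). MYOCD, the heart and smooth muscle coactivator of SRF, rose in wild type from 0.253 and 0.189 FPKM at day 3 to 66.6 and 59.5 FPKM at day 7. It was listed at 27.2 and 22.7 FPKM in the labelled knockout at day 7 (-1.31, SE 0.20, adjusted p = 0.000484). At day 15 the groups overlapped, at 33.4 and 31.2 FPKM against 33 and 29.1 FPKM (-0.06, SE 0.20, adjusted p = 0.842).

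Of the actin-sensing coactivators, MKL1 (now MRTFA) did not pass at any day (-0.18, -0.05 and 0.34, adjusted p = 0.641, 0.878 and 0.296). MKL2 (now MRTFB) passed at day 15 (1.60, SE 0.48, adjusted p = 0.0242), but its labelled knockout libraries were far apart, at 51.1 and 20.2 FPKM against 11.6 and 8.5 FPKM in wild type. Among cardiac factors of the list, NKX2-5 was lower in the labelled knockout at day 3 (-1.36, SE 0.19, adjusted p = 0.000849) and day 7 (-2.26, SE 0.19, adjusted p = 1.79e-05). GATA4 was lower at day 3 (-1.67, adjusted p = 7.48e-05), at day 7 (-1.17, adjusted p = 0.000237) and at day 15, with group means of 102 and 50.6 FPKM (adjusted p = 0.000785). MEF2D, a MADS-box factor like SRF, was higher at day 3 (0.53, adjusted p = 0.0393) and lower at day 7 (-1.16, adjusted p = 0.000368). At day 15 TBX5 (2.70, SE 0.21, adjusted p = 1.27e-05) and TEAD1 (0.97, SE 0.16, adjusted p = 0.00119) were higher.

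Of 21 textbook SRF targets beside the actins, all tested, 5 were lower and 2 higher in the labelled knockout at day 3 (median -0.24), where 14.1% of all genes were lower and 9.51% higher. At day 7, 13 were lower and none passed as higher (median -0.61), where 19.9% of all genes were lower, and at day 15, 14 were lower and 1 higher (median -0.99), where 16.2% of all genes were lower. SRF is itself one of the 21. TAGLN, transgelin, an actin-binding protein of smooth muscle, was lower at all 3 days (-0.82, -2.23 and -2.45, adjusted p = 0.000368, 3.48e-07 and 3.12e-07). At day 15 it was listed at 1105 and 1221 FPKM in wild type and 223 and 202 FPKM in the labelled knockout. MYL9, a regulatory light chain of smooth muscle and non-muscle myosin, was lower at all 3 days too (-1.59, -1.57 and -2.12, adjusted p = 1.72e-05, 7.12e-06 and 1.57e-06). CYR61, a matrix protein gene now called CCN1, was lower at days 7 and 15 (-1.22 and -1.67, adjusted p = 2.55e-05 and 5.38e-06). TPM1, alpha-tropomyosin, which lies along the actin filament, went the other way at day 3 (0.92, SE 0.10, adjusted p = 0.000215). It was lower at days 7 and 15 (-1.30 and -1.03, adjusted p = 1.2e-05 and 6.58e-05).

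Of 22 sarcomeric partners of actin, 13 genes were tested. At day 3, 3 were higher and 2 lower (median 0.36), where 9.51% of all genes were higher and 14.1% lower. At day 7, 9 were lower, none passed as higher and 4 did not pass (median -1.20), where 19.9% of all genes were lower, and at day 15, 10 were lower, none passed as higher and 3 did not pass (median -1.19), where 16.2% were lower. Their changes ranged from -3.43 to 0.44 at day 7 and from -2.29 to 0.48 at day 15. FHOD3, a formin that builds sarcomeric actin, was higher at day 3 (2.58, SE 0.15, adjusted p = 4.63e-06), with group means of 1.41 FPKM in wild type and 13.5 FPKM in the labelled knockout. At day 15 FHOD3 was lower (-1.19, SE 0.15, adjusted p = 0.000214). NEBL, the cardiac nebulin-like protein nebulette, was also higher at day 3 (1.59, SE 0.18, adjusted p = 0.000226). It was lower at days 7 and 15 (-1.18 and -1.28, adjusted p = 0.000575 and 0.000473). TNNC1, cardiac troponin C, was lower at all 3 days (-0.65, -3.43 and -1.77, adjusted p = 0.0131, 3.65e-07 and 2.99e-05). TMOD1, which caps the slow-growing end of the thin filament, was lower at days 7 and 15 (-2.84 and -0.93, adjusted p = 3.48e-07 and 0.000395). TNNI3, the adult cardiac troponin I, was lower at all 3 days (-0.55, -1.16 and -2.23, adjusted p = 0.00661, 3.93e-05 and 1.32e-06). XIRP1, an actin-binding protein of the intercalated disc, was lower at days 7 and 15 (-1.20 and -2.29, adjusted p = 0.000444 and 1.3e-05).

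Of 22 genes tested for proteins that bind monomers or turn filaments over, 8 were lower and 3 higher at day 3 (median -0.21), where 14.1% of all genes were lower and 9.51% higher. At day 7, 12 were lower and 1 higher (median -0.64, with 19.9% and 22.1% of all genes), and at day 15, 7 were lower and none passed as higher (median -0.09, with 16.2% and 18.9% of all genes). PFN1, profilin, which feeds monomers to growing ends, was lower at all 3 days (-0.93, -1.01 and -0.95, adjusted p = 0.00021, 5.17e-05 and 0.000108). GSN, the severing protein gelsolin, was lower at day 3 (-1.26, SE 0.12, adjusted p = 8.54e-05) and day 7 (-1.54, SE 0.12, adjusted p = 1e-05), and at day 15 its group means were 56.4 and 55.5 FPKM. CFL1, cofilin, was lower at all 3 days (-0.95, -0.72 and -0.41, adjusted p = 0.000255, 0.000559 and 0.0143). DSTN, destrin, was lower at days 7 and 15 (-0.94 and -0.29, adjusted p = 6.8e-05 and 0.0452). Of the thymosins, which sequester monomers, TMSB10 was lower at all 3 days (-0.77, -0.92 and -1.14, adjusted p = 0.00491, 0.000817 and 0.000324). TMSB4X was higher at day 3 (0.39, adjusted p = 0.026) and lower at days 7 and 15 (-0.73 and -1.41, adjusted p = 0.000479 and 1.32e-05).

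Nucleation and capping genes of non-muscle cells moved both ways. Of 26 tested, 8 were lower and 3 higher at day 3, 13 lower and 3 higher at day 7, and 9 lower and 5 higher at day 15 (medians -0.03, -0.39 and -0.03). Over all genes 23.6%, 42% and 35.1% passed at these days in either direction. ARPC1B, a subunit of the Arp2/3 complex that starts branched filaments, was lower at all 3 days (-1.09, -0.58 and -0.90, adjusted p = 0.000559, 0.00819 and 0.000946). ARPC5L, another subunit, was lower at all 3 days too (-0.53, -0.42 and -0.85, adjusted p = 0.0175, 0.0297 and 0.000903). CAPZB, of the capping protein, was lower at day 3 (-0.47, SE 0.10, adjusted p = 0.00681) and day 7 (-0.76, SE 0.10, adjusted p = 0.000197). CTTN, cortactin, was higher at day 7 (1.46, SE 0.14, adjusted p = 2.84e-05). Higher at all 3 days were the formin FMNL2 (0.71, 0.98 and 0.64, adjusted p = 0.00337, 0.000229 and 0.00371) and WASF3 (0.78, 0.68 and 1.04, adjusted p = 0.0099, 0.0108 and 0.00131).

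Of 19 genes tested for the folding and end processing of actin, 1 was higher and 3 lower at day 3, and 2 were higher and 4 lower at each of days 7 and 15 (medians -0.04, -0.25 and -0.11). Over all genes 23.6%, 42% and 35.1% passed at the 3 days, so these counts are near the background or under it. PFDN6, a subunit of prefoldin, which hands new actin to the chaperonin, was lower at all 3 days (-0.42, -0.37 and -0.72, adjusted p = 0.0272, 0.0288 and 0.00106). The prefoldin genes PFDN1 at day 3 (-0.53, adjusted p = 0.025) and PFDN2 at days 7 and 15 (-0.57 and -0.89, adjusted p = 0.0335 and 0.00469) were lower too. CCT8, of the chaperonin, was higher at day 3 (0.36, adjusted p = 0.0251). PDCL3, which acts with the chaperonin, was lower at day 3 (-0.43, adjusted p = 0.0353) and higher at day 7 (0.88, adjusted p = 0.000458). SETD3, the enzyme that methylates a histidine of actin, was lower at day 7 (-0.47, SE 0.15, adjusted p = 0.0263). NAA10, a catalytic subunit of the main N-terminal acetyltransferase, was lower at day 15 (-0.81, adjusted p = 0.00495).

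Other actin-like genes were tested for 10 of a list of 17, and ACTG2, enteric smooth muscle actin, was not analysed here. In the labelled knockout 1 was higher and 1 lower at day 3, 3 higher and 2 lower at day 7, and 2 higher and 4 lower at day 15, against 23.6%, 42% and 35.1% of all genes that passed. POTEF, a primate gene with an actin-like part whose reads could be split with ACTB, was higher at all 3 days (0.88, 1.60 and 0.89, adjusted p = 0.0233, 0.000477 and 0.0155). POTEE and POTEF together came to between 0.0416% and 0.513% of summed actin FPKM in the 12 libraries. ACTR1A (-0.49, -0.62 and -0.42 at days 3, 7 and 15, adjusted p = 0.0182, 0.00305 and 0.0258) and ACTR10 (-0.72 and -0.61 at days 7 and 15, adjusted p = 0.00334 and 0.00943), both of the dynactin complex, were lower. At day 15 ACTRT3, an actin-related protein, was lower (-0.85, adjusted p = 0.00544, at group means of 1.72 and 0.513 FPKM). ACTL6A, of chromatin remodelling complexes, was higher at days 7 and 15 (0.69 and 0.54, adjusted p = 0.00352 and 0.0142).

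Across the 12 libraries, which share 6 groups and their course, the muscle actins ran close together and the cytoplasmic pair did not. Pearson's r of log2(FPKM + 1) was 0.99 between ACTC1 and ACTA2, 0.96 between ACTA2 and ACTA1, 0.94 between ACTC1 and ACTA1 and 0.45 between ACTB and ACTG1. Both cytoplasmic genes ran against the muscle genes, ACTG1 at -0.85, -0.74 and -0.68 and ACTB at -0.50, -0.60 and -0.62 for ACTA1, ACTA2 and ACTC1. The genes most like each actin over the same 12 libraries were sought among up to 4360 genes that reach a group mean of 10 FPKM and vary between groups. For ACTA1 they were APOA1 (r = 0.996), ANKRD1 (r = 0.992) and H19 (r = 0.990). For ACTC1 they were BAMBI (r = 0.997), ACTA2 (r = 0.994) and PBXIP1 (r = 0.990), and for ACTA2 they were ADGRA2 (r = 0.995), ACTC1 (r = 0.994) and TEAD3 (r = 0.991). The cytoplasmic genes were less closely matched: CHD3 (r = 0.982), RPS6KA1 (r = 0.979) and RPL13AP5 (r = 0.978) for ACTG1, and MCOLN3 (r = 0.922), TOE1 (r = 0.921) and PLSCR1 (r = 0.921) for ACTB. These correlations describe the 12 libraries and rest largely on differences between the 6 groups.

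Many markers of the cell types that could bring these actins moved with them and some ran the other way. Their part in the results was not tested. Of 11 cardiomyocyte markers tested, 3 were lower and none passed as higher in the labelled knockout at day 3, all 11 were lower at day 7, and 7 were lower and 1 higher at day 15. Over all genes 14.1%, 19.9% and 16.2% were lower at these days. MYH7, the slow cardiac myosin heavy chain, was listed at 395 and 462 FPKM in wild type and 29.9 and 21.9 FPKM in the labelled knockout at day 15. MYH6, its atrial and early counterpart, was at 632 and 702 FPKM against 959 and 786 FPKM. Smooth muscle markers (9 of 10 listed) summed to 555 to 581 FPKM in wild type and 167 to 186 FPKM in the labelled knockout at day 7, and to 1422 to 1567 and 335 to 374 FPKM at day 15. Most of the wild-type sum was TAGLN, at group means of 362 and 1163 FPKM. Of the 9 markers, 5 were lower and 1 higher at day 7, and 4 were lower and 1 higher at day 15. Group means of MYLK ran the other way at day 7 (3.05 FPKM in wild type, 10.5 FPKM in the labelled knockout), as did those of SYNPO2 at day 15 (2.14 and 15 FPKM). MYH11, LMOD1, MYOCD and SYNPO2 were under 1 FPKM as group means in wild type at day 3, and no listed smooth muscle marker was under 1 FPKM at day 15 in either genotype. Of 13 skeletal muscle markers 3 were analysed here, PAX3, MYH3 and CKM, and their sum was 96.9 to 115 FPKM in wild type and 38.2 to 41.6 FPKM in the labelled knockout at day 15. Most of it was CKM, muscle creatine kinase, which heart muscle also expresses, at group means of 99.9 and 25.2 FPKM. PAX3 ran the other way. Its group means were 0.273 FPKM in wild type and 25.8 FPKM in the labelled knockout at day 7, and 2.08 and 13.1 FPKM at day 15.

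Markers of other cell types are given as summed FPKM in wild type against the labelled knockout, with the number of tested markers that passed. For comparison, 22.1% of all genes tested were higher and 19.9% lower at day 7, and 18.9% were higher and 16.2% lower at day 15. Fibroblast and stromal markers (6 of 10) summed to 655 to 687 FPKM against 385 to 460 FPKM at day 7 (2 of 5 lower) and to 238 to 275 against 271 to 343 FPKM at day 15 (3 of 5 higher), with TCF21 under 1 FPKM in every group. Neural markers (7 of 10) summed to 98.9 to 106 FPKM against 305 to 306 FPKM at day 7 (5 of 6 higher) and to 42.2 to 47.1 against 94.6 to 110 FPKM at day 15 (3 of 6 higher), with DCX under 1 FPKM in every group. No list was tested as a whole.

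Endothelial markers (8 of 10) summed to 108 to 123 FPKM against 58.5 to 67 FPKM at day 7, with 6 of 8 lower. At day 15 their sums overlapped, at 75.1 to 77.9 FPKM against 68 to 77.6 FPKM, while 4 of 8 were higher and 1 lower, with CDH5 at group means of 2.22 and 6.67 FPKM and PECAM1 at 1.65 and 4.61 FPKM. The sum there was mostly KDR, at group means of 65.9 and 48.3 FPKM. Pluripotency markers (5 of 8) summed to 797 to 816 FPKM against 1143 to 1228 FPKM at day 7 (3 of 5 higher, 1 lower) and to 120 to 139 against 433 to 465 FPKM at day 15 (2 of 5 higher, 1 lower). At day 15 most of that gap was LIN28A, at group means of 62.5 and 349 FPKM, and SOX2, which is also on the neural list, at 7.79 and 47.7 FPKM. TDGF1 ran the other way, at 12.7 and 1.89 FPKM, and POU5F1 stood at 30 and 33.3 FPKM. Beside these counts, 22.1% of all genes were higher and 19.9% lower at day 7, and 18.9% were higher and 16.2% lower at day 15.

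Genes of proliferating cells (8 of 8) summed to 322 to 332 FPKM against 507 to 545 FPKM at day 7 (6 of 8 higher). At day 15 they summed to 216 FPKM in both wild-type libraries against 179 to 197 FPKM, with 3 of 8 higher and 2 lower. Epithelial markers (8 of 8) summed to 8203 to 8232 FPKM against 2405 to 3157 FPKM at day 7 (7 of 8 lower) and overlapped at day 15 (1 of 8 higher, 2 lower). Most of the wild-type sum at day 7 was the keratin genes KRT8, KRT19 and KRT18, at group means of 3810, 2621 and 1069 FPKM. EPCAM and CDH1 stood at 234 and 131 FPKM there. Endoderm markers (6 of 9) summed to 197 to 212 FPKM against 70.2 to 76.2 FPKM at day 7 (5 of 6 lower) and to 140 to 161 against 46.2 to 50.3 FPKM at day 15 (2 of 6 lower, 1 higher). Streak and early mesoderm markers (6 of 8), which mark the stage of day 3, summed to 625 to 631 FPKM against 163 to 181 FPKM at that day (5 of 6 lower). As shares of all genes, 14.1% were lower at day 3. At day 7, 22.1% were higher and 19.9% lower, and at day 15, 18.9% were higher and 16.2% lower.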

How the data were processed

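The authors deposited 1 table per library with 1 value per gene symbol. The values deposited by the authors were read as FPKM: the unit was inferred from the values, whose sums differ between libraries. BWA and hg38 (GRCh38) were used per the submitters' processing notes, and no source used here gives the program behind the values, its annotation or its strand setting. All 17096 genes are above 0 in all 12 libraries, and no pair of libraries holds identical values. Depth is unknown. It was sought from steps of whole fragments in low values of 863 single-transcript genes of at least 1500 bases. At the best-fitting depth 50.0% to 83.3% of 15 to 65 values per library lay within 0.1 of a whole fragment. No reference for chance was computed, so whether the values step in whole fragments was not decided. No count model was used.

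Tests used limma 3.58.1 (R 4.3.3) with its trend on log2(FPKM + 1), for the 16295 genes that reached 1 FPKM in 2 or more libraries, with 6 group means on 12 libraries (6 residual degrees of freedom) and 9 contrasts. P-values were two-sided, adjusted by Benjamini and Hochberg, with a threshold of 0.05. Tested on simulated data of 16295 genes, the code recovered 64%, 73% and 66% of log2 changes of 1 in the genotype comparisons at days 3, 7 and 15, and 97%, 96% and 94% of changes of 2, with 5.29%, 6.11% and 4.19% of calls false. Changes were planted in a small set of genes at about 5 FPKM or more in wild type, with normal noise and no change in any other gene. Far more genes passed in the data, so these rates check the code and need not hold for the calls given here or for lower genes.

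The members, 7 pathway and 11 marker lists and the rules were chosen with earlier results of these data known. Named were the 5 actins, SRF, MRTFA, MRTFB and MYOCD, the 3 genes most correlated with each actin, and up to 3 members of each pathway list per genotype comparison with the smallest adjusted p. Where such a list member also passed in another genotype comparison, that is given too. TNNT2, MYH6 and MYH7 and the marker sums were added for comparison. Genes of the lists that had no row are not analysed here. Alternatives were a pseudocount of 0.1, a filter at 5 FPKM or none, median-ratio and nuclear-sum rescaling, no trend, the compared groups alone, a replicate block, and each library left out. Sequences were read from GENCODE 29 and RefSeq with Python 3.11.15, and coding sequences were aligned with Biopython 1.88.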

Additional observations from a re-analysis of the deposited data

Results flagged for a closer look

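The genotype difference of 4 actins changed between neighbouring days by the interaction test (limma, adjusted over all genes tested). Between days 3 and 7 the change was -1.28 for ACTA1 (adjusted p = 0.00737), -2.55 for ACTA2 (adjusted p = 0.000546), -1.66 for ACTC1 (adjusted p = 0.0118) and 0.87 for ACTB (adjusted p = 0.00348) on the log2(FPKM + 1) scale. Between days 7 and 15 it was -1.40 for ACTA1 (adjusted p = 0.00284), 1.43 for ACTA2 (adjusted p = 0.00683), 1.79 for ACTC1 (adjusted p = 0.00513) and -1.04 for ACTB (adjusted p = 0.000804). The signs of ACTA2 and ACTC1 turned between the steps, that of ACTB turned the other way, and that of ACTA1 did not turn. Both steps share the day 7 libraries. The values for ACTG1, 0.53 and 0.59, did not pass. ACTA1, at less than 1 FPKM in all 4 libraries of day 3, was not called at the first step with a pseudocount of 0.1 (-0.81, adjusted p = 0.23).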

How the results depend on the processing

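Of the recomputed log2 changes of actins, 532 kept their direction and side of the threshold, 34 lost and 9 gained a call, and 4 turned sign. Median-ratio rescaling gave 0.22 for ACTB and -0.07 for ACTG1 between genotypes at day 7, -0.38 for ACTB between days 3 and 7 in the labelled knockout, and 0.65 for the ACTG1 interaction of days 7 and 15. Nuclear-sum rescaling gave -0.34 for ACTG1 between genotypes at day 3, -0.56 for ACTC1 and 0.09 for ACTA2 between days 7 and 15 in wild type, and 0.56 for the ACTG1 interaction of days 3 and 7. A pseudocount of 0.1 gave -0.75 for ACTC1 between days 7 and 15 in wild type, 0.92 for ACTA1 over that step in the labelled knockout, and -0.81 for its interaction of days 3 and 7. A filter at 5 FPKM gave calls for ACTB between days 3 and 7 in the labelled knockout (-0.30) and for the ACTG1 interaction of days 7 and 15 (0.59). Without the trend ACTG1 at day 3 (-0.52) and ACTB at day 7 (0.31) lost their calls between genotypes. A fit on the compared groups alone lost ACTA2 at day 3 (-0.98), ACTG1 at day 15 (0.60) and ACTB between days 7 and 15 in the labelled knockout (-0.41), gained the ACTG1 interaction of days 3 and 7 (0.53), and called 3657 genes between genotypes at day 15 (5723 with all groups) and 2084 between days 7 and 15 in the labelled knockout (4628 with all groups). With POTEE and POTEF in the sum, the shares that moved by more than 1 SD were ACTA2 in wild type at day 15 (11.7%) and the cytoplasmic share at day 3 (99.6% in wild type, 99.7% in the labelled knockout).

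The replicate block lost ACTG1 at day 3 (-0.52) and ACTB at day 7 (0.31) between genotypes and ACTC1 between days 7 and 15 in wild type (-0.75), and gained ACTB between days 3 and 7 in the labelled knockout (-0.30). The labels do not say that replicate numbers mark a pair, and the replicate differences of the genotypes correlated across genes at 0.04, 0.02 and -0.12 at days 3, 7 and 15. Between days they correlated at -0.03 to 0.02 within wild type and, within the labelled knockout, at 0.15 for days 3 and 7, 0.21 for days 7 and 15 and 0.10 for days 3 and 15. With 2 numbers a group and no such statement in the labels, the samples were taken to share only a number.

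Leaving out each library in turn gave ranges between genotypes of -1.34 to -0.62 for ACTA2 and -0.61 to -0.42 for ACTG1 at day 3, 0.28 to 0.33 for ACTB and -0.04 to 0.08 for ACTG1 at day 7, and 0.38 to 0.83 for ACTG1 at day 15. Between days 7 and 15 the ranges were -0.77 to -0.72 for ACTC1 in wild type, and 0.74 to 1.35 for ACTC1, -0.54 to -0.28 for ACTB and -0.38 to 0.07 for ACTG1 in the labelled knockout, and the ACTG1 interaction ranged from 0.37 to 0.81. ACTG1 over that step in the labelled knockout turned to 0.07 without day 15 replicate 2 and passed at -0.38 without day 15 replicate 1. The genes called ranged from 1990 to 2503 at day 3 (3849 with all libraries), 4498 to 5241 at day 7 (6852) and 3803 to 5524 at day 15 (5723) between genotypes, 2947 to 3284 between days 3 and 7 (4668) and 2902 to 4897 between days 7 and 15 (4628) in the labelled knockout, and 1920 to 2558 in the interaction of days 3 and 7 (3285). With 2 libraries a group, a left-out library leaves 1, which is assumed to vary like the other groups. The cause of these changes was not tested.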

Other observations

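The 3 pseudogenes of gamma-actin that the tables list stayed low beside their parent. ACTG1P10 was listed at 1.73 to 5.63 FPKM over the 12 libraries, ACTG1P17 at 0.12 to 1.87 FPKM and ACTG1P1 at 0.182 to 1.96 FPKM, while ACTG1 stood at 761 to 2310 FPKM. POTEF was listed at 1.72 to 5.46 FPKM at day 3 and at 8.44 to 12.3 FPKM in the labelled knockout from day 7 on. How reads that fit both a copy and its parent were shared out is not given in the sources used here.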
